A study of Mus musculus with 6 samples.

Results

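The genes of the proteasome were followed in mouse embryonic stem cells (mESCs) with and without huntingtin. They were taken from the expression table by symbol, as every gene whose name starts with Psma, Psmb, Psmc, Psmd, Psme, Psmf or Psmg and a digit, apart from Psmc3ip, which encodes a recombination protein. This gave 48 genes of 23412 in the table. Of these, 46 reached a mean normalized count of at least 5 and were tested, and Psmb8 and Psmb11 did not.

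The proteasome is the large protease that degrades proteins marked with ubiquitin. Its 20S core is a barrel of stacked rings, with alpha subunits (Psma) outside and beta subunits (Psmb) inside, and the beta subunits encoded by Psmb5, Psmb6 and Psmb7 cut the protein chain. The 19S cap binds ubiquitin chains through its base and lid, removes them, and unfolds and threads the protein into the core with the ATPases of the base (Psmc). Interferon exchanges the cutting subunits for those of the immunoproteasome, encoded by Psmb8, Psmb9 and Psmb10, whose peptides are favoured for presentation on MHC class I. Dedicated chaperones build the core and the cap, and alternative caps (Psme) replace the 19S particle.

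The R1 line is the parental wild type, of 129Sv background. The HN line was derived from it and is Htt-/-, lacking the promoter and exon 1 of Htt on both alleles. Both lines were grown undifferentiated without feeder cells on gelatin, in medium with LIF and 3 inhibitors (SU5402, PD184352 and CHIR99021). Each genotype is represented by a single line, so a difference between the lines cannot be told apart from one between clones. There were 3 libraries per line and 6 in all, and libraries with the same replicate number came from the same collection date.

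The libraries held between 1640391 and 3866717 reads on genes, of which between 0.781% and 0.936% fell on the proteasome genes. Htt, which checks the labels, had normalized counts of 230, 257 and 199.5 in R1 and of 18.3, 58.1 and 54.2 in HN. The summed normalized count of 10 markers of naive mESCs was 21770, 19520 and 15320 in R1. It was 23690, 21220 and 17110 in HN, the higher values on each date. The median log2 fold change of HN over R1 of the 10 was 0.275, and the lowest, Zfp42, stood at -0.79. The summed count of 7 fibroblast markers was 143.7, 75.5 and 187 in R1 and 79.1, 37.6 and 98.6 in HN, the lower values in HN on each date. These markers did not move together. The log2 fold changes were -1.54 for Thy1 and -1.39 for Pdgfrb. They were -0.13 for Col1a1, -0.45 for Col1a2, 0.11 for Col3a1 and 0.01 for Pdgfra, and Postn was not tested. Markers of primitive endoderm summed to between 29.8 and 54.8 on the earlier dates and to 144.2 and 121 on the third. Those of neural cells and mesoderm summed to 56.4, 91.7 and 138.8 in R1 and to 101, 133.3 and 176.5 in HN. Their log2 fold changes ran from -0.44 for Pax6 to 1.21 for T. Blood cell markers summed to 14.9, 17.8 and 55.3 in R1 and to 13.4, 10.6 and 20.6 in HN. The 2 that were tested, Ptprc and Itgam, had log2 fold changes of -0.41 and -1.2. In bulk RNA, a change in the number of cells of a type and a change in RNA per cell cannot be told apart.

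The sequences just before the start sites show a motif that is more frequent in genes of the cap than in those of the core. RefSeq (GRCm38.p6) gave 43 promoters for 40 of the 48 genes. The motif CCGGAAG, which ETS factors bind, was searched on both strands in the 250 bases before each start. It occurred in 13 of the 43 promoters (30.2%), against 6.91% of all 32851 promoters. By gene, 8 of 14 subunits of the 19S cap with a promoter in the table held it, against 1 of 11 constitutive subunits of the 20S core (Psma6) and 0 of 4 subunits of the immunoproteasome and thymoproteasome. The promoters were not matched for base composition, and a match is only a description of these letters.

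Shown first are a base ATPase (Psmc6) and a lid subunit (Psmd12) with a match, and then 4 genes without one that are described in the comparison of the lines. Capitals mark CCGGAAG or its reverse complement CTTCCGG, and each sequence runs 5′ to 3′ towards the start site. These are the strands and positions in GRCm38.p6: Psmc6 on the plus strand at chr14:45329574-45329823, Psmd12 on the plus strand at chr11:107479278-107479527, Psmb5 on the minus strand at chr14:54617996-54618245, Psmb9 on the minus strand at chr17:34187331-34187580, Psmg4 on the plus strand at chr13:34162714-34162963 and Psme1 on the plus strand at chr14:55578244-55578493. The RefSeq starts lay within 13 bases of the start of some GENCODE transcript in all 6 genes, which need not be the outermost one. The sequences of Psmb9 and Psme1 lie inside their GENCODE genes (34181987 to 34187764 and 55578123 to 55581529). Those of Psmc6, Psmd12 and Psmb5 overlap their genes in part. The match ended 94 bases before the RefSeq start in Psmc6 and 11 bases before it in Psmd12. In Psmd12 it lies inside the GENCODE gene, which begins at 107479484.
Psmc6: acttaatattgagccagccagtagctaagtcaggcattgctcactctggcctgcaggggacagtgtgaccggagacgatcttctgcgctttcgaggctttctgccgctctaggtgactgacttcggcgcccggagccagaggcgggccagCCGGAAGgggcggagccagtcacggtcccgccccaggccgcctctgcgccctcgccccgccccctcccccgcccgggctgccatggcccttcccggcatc
Psmd12: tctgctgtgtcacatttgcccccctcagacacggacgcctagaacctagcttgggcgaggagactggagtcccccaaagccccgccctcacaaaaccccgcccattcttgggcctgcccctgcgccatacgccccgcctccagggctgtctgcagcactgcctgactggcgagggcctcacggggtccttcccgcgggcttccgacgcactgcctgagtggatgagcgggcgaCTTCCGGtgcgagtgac
Psmb5: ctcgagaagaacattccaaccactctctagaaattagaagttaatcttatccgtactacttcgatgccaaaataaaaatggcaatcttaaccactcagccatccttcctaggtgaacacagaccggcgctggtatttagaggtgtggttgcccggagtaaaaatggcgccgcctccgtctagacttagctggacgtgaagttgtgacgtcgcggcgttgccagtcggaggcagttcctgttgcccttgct
Psmb9: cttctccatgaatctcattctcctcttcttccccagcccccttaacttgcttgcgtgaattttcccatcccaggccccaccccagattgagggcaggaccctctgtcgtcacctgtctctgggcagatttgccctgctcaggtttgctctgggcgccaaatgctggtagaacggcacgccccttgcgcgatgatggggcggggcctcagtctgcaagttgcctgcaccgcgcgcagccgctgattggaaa
Psmg4: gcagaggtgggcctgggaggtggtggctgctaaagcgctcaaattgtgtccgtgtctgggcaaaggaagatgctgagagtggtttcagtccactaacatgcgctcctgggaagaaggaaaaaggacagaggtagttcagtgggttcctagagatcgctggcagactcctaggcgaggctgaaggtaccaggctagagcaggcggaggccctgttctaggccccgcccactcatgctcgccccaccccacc
Psme1: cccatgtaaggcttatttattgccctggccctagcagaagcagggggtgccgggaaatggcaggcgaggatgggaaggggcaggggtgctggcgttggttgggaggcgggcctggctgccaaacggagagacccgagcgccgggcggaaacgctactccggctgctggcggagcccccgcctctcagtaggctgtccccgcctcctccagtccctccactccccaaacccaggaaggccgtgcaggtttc

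Other motifs linked to proteasome genes were searched in the same way. The core of the antioxidant response element (TGANNNNGC), bound by the factor that Nfe2l1 encodes, was found in 39.5% of the promoters against 35.2% of all. CCAAT was found in 32.6% against 33.8%. TGACTCA, which overlaps some forms of that element, was found in 1 promoter (Psmd9; 2.33%, against 4.46% of all), and the nuclear respiratory factor site in 1 (Psma2; 2.33%, against 0.782%).

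Levels were compared between genes as RPKM, computed from the recovered reads over the length of all exons of a gene and the reads on genes of a library. Over the 6 libraries the 48 genes ranged from 0.232 for Psmb11, the beta subunit of the thymus, to 239 for Psmb6, with a median of 61.3. Psma8, the alpha subunit of the testis, lay at 7.004. The subunits that every proteasome contains in equal number did not have equal levels. Among the cutting subunits, Psmb6 stood at 239, Psmb7 at 69.0 and Psmb5 at 27.7. The lowest levels among the constitutive subunits of core and cap were those of Psmd11 (8.32), Psmc2 (10.99), Psmd3 (12.7) and Psmd7 (13.9).

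Reads that match several genes can be lost in counting, so the transcripts of each gene were cut into stretches of 50 bases and compared with those of every other annotated gene. In Psmb5, 54.1% of the stretches also occurred in another gene, most of them in Gm3375. The share was 49.96% in Psma5, 28.3% in Psme2 and 24.9% in Psmd9, and it was under 10% in 38 genes. In the 4 genes of core and cap with the lowest levels it was 9.43% (Psmd11), 3.72% (Psmc2), 0.594% (Psmd3) and 0% (Psmd7). Levels of Psmb5, Psma5 and Psme2 are uncertain for this reason. Psme2b, a near copy of Psme2, was not analysed here.

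**Figure D1:**
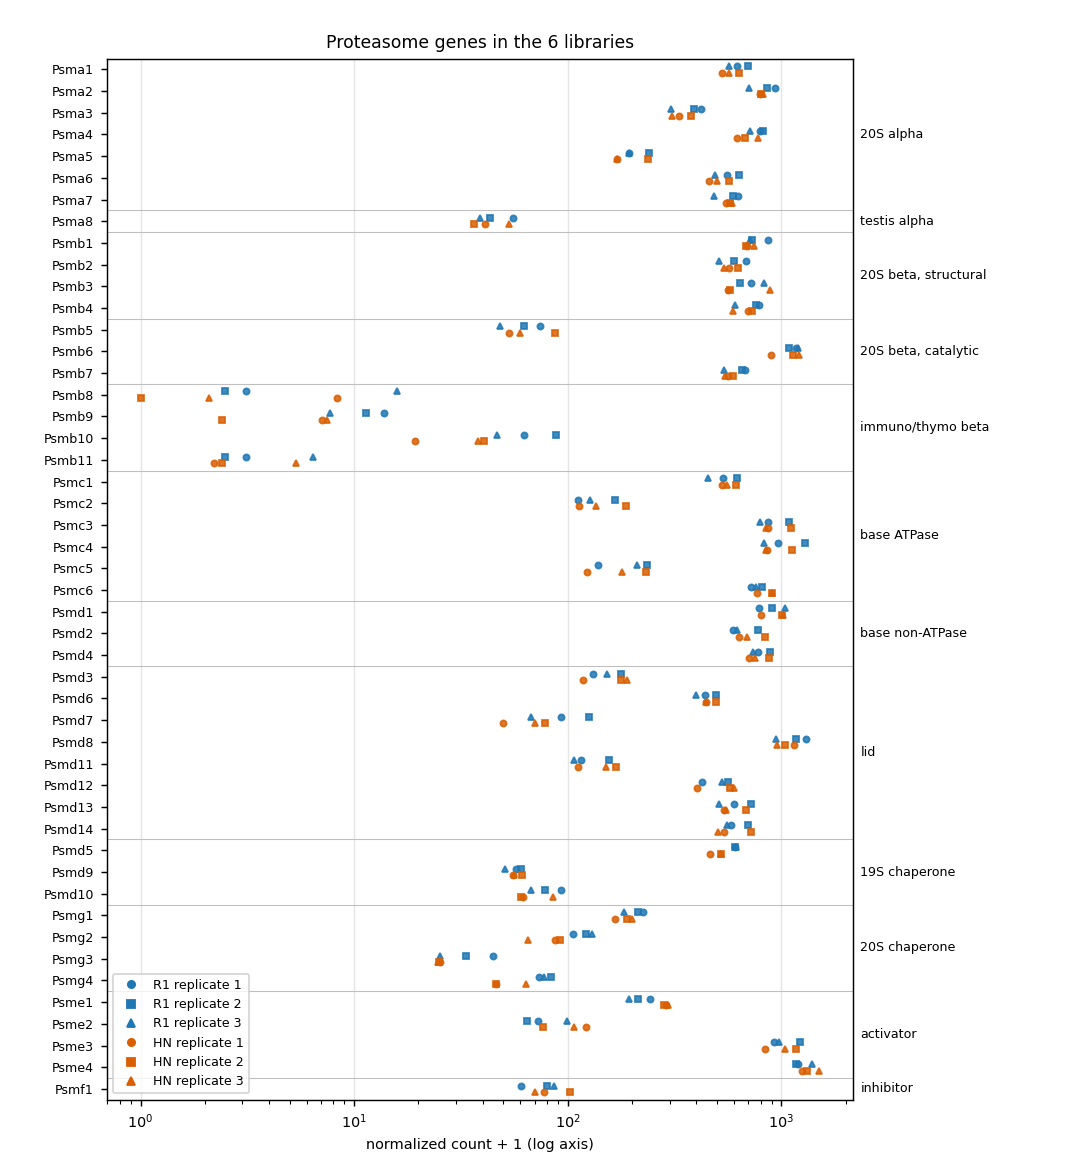
Normalized count plus 1 (log axis) of the 48 proteasome genes, grouped by role; blue points are R1 and orange points HN libraries, and the shape gives the replicate number, which stands for the collection date. In most genes both colours lie on top of each other, Psme1 has its HN points to the right, and Psmb9, Psmb10, Psmd5, Psmg2 and Psmg4 have them to the left.

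The comparison of HN with R1 asks which of these genes differ in cells that lack huntingtin. No proteasome gene passed the test between the lines, by limma without a block, at an adjusted p under 0.05 (0 of 46; 35 of all 14276 tested genes, 0.245%, were called). edgeR and DESeq2 on the recovered reads also called 0 of the 46 without a block (against 0.238% and 0.658% of all tested genes). At an unadjusted p under 0.05 limma picked 4, namely Psmb10, Psmg2 and Psmg4 with lower and Psme1 with higher values in HN (8.70%, against 5.91% of all tested genes). Of all 35 called genes, 17 were higher and 18 lower in HN, and 30 and 19 when each library was centred on its median.

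The libraries of a date form pairs, and limma with a block for the date called these same 4 genes (8.70%, against 9.48% of all tested genes). Lower in HN were 3 of them (6.52%, against 4.02%), and higher was 1 (2.17%, against 5.46%). edgeR with the block called 5, adding Psmd7 (10.9%, against 11.2%). The share of proteasome genes called was thus close to that of all genes under either tool when genes of every count are taken. With the limma block at a mean count of at least 50, 1 of 42 proteasome genes was called higher, against 672 of all 7659 genes. Called lower were 2 of the 42, against 399 of the 7659. The log2 fold changes of the 46 genes had a median of -0.07 (-0.01 over all tested genes) and ran from -1.08 for Psmb9 to 0.42 for Psme1. Of the 46, 29 lay below 0 (63.0%, against 51.5% of all tested genes).

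The size of a difference that the libraries could have missed follows from the 95% intervals of the log2 fold changes. The interval lay within -1 to 1 in 40 of the 46 genes without the block (87.0%, against 55.0% of all tested genes). With the block it lay within -0.5 to 0.5 in 36 (78.3%, against 33.3%). All 36 had a mean count of at least 50, which 42 of the proteasome genes reached, and among all genes at that mean it was 4613 of 7659.

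**Figure D2:**
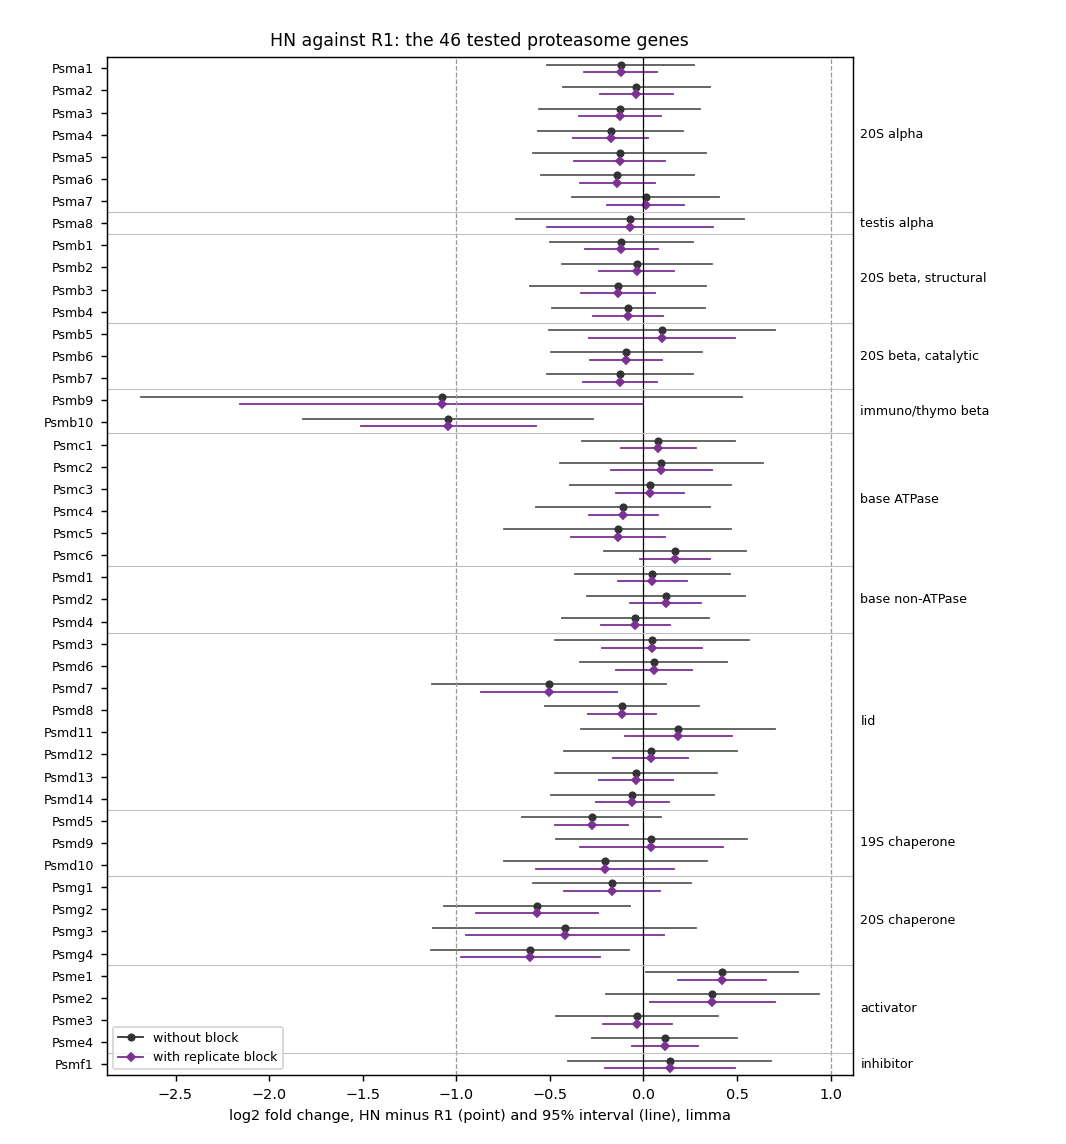
The log2 fold change of HN over R1 (x axis) for the 46 tested genes by role, with the 95% interval of limma without (black) and with (purple) the replicate block; dashed lines mark -1 and 1. The subunits of core and cap lie near 0, from -0.51 for Psmd7 to 0.19 for Psmd11, while Psmb9 and Psmb10 lie near -1 and the 4 Psmg chaperones all lie below 0.

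The proteasome genes together took 0.894% ± 0.0403 of the reads on genes in R1 and 0.851% ± 0.0730 in HN (SD, n = 3 each), with overlapping libraries. No gene of the constitutive core was called. Its 14 genes had a median log2 fold change of -0.12, and 12 of 14 lay below 0 (against 51.5% of all tested genes). Of the 14, 3 were lower in HN in all 3 same-date pairs, a share near the 21.1% of all tested genes. Limma called 0 of them without or with the block (against 0.245% and 9.48%). Psma4, the lowest of the alpha ring, had normalized counts of 797, 823 and 712 in R1 and of 622, 672 and 775 in HN. Its libraries overlapped, and its log2 fold change was -0.18 (95% interval -0.56 to 0.21). Psma7, the highest of that ring, stood at 629, 595 and 484 in R1 and at 549, 575 and 588 in HN (log2 fold change 0.01, interval -0.38 to 0.41). The other 5 genes of the ring, Psma1, Psma2, Psma3, Psma5 and Psma6, lay between -0.14 and -0.04 on the log2 scale, and their libraries overlapped as well.

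Of the structural beta subunits, Psmb2 was the nearest to 0 (log2 fold change -0.04, interval -0.44 to 0.37). Psmb3 was the furthest from it (log2 fold change -0.14, interval -0.61 to 0.33). Its counts of 720, 641 and 828 in R1 and of 565, 577 and 882 in HN were highest in both lines on the third date. Psmb1 and Psmb4 lay between these at -0.12 and -0.08 on the log2 scale. Psma8, which replaces an alpha subunit in the testis, had counts of only 35.4 to 54.3 and a log2 fold change of -0.07 (interval -0.68 to 0.54).

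The cutting subunits of the constitutive core overlapped between the lines too. Psmb5, which carries the chymotrypsin-like activity and is the target of bortezomib, had counts of 73.5, 61.4 and 47.2 in R1 and of 52.3, 85.8 and 58.5 in HN. Its log2 fold change was 0.10 (interval -0.51 to 0.70). Psmb6, the caspase-like subunit, had counts of 1167, 1080 and 1196 in R1 and of 897, 1140 and 1215 in HN (log2 fold change -0.09, interval -0.50 to 0.31). Psmb7, the trypsin-like subunit, had 672, 651 and 536 in R1 and 560, 593 and 544 in HN (log2 fold change -0.13, interval -0.51 to 0.26).

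The difference between the lines in the subunits of core and cap varied with the date of the pair. The median log2 difference of the 31 constitutive subunits of core and cap was -0.17 on the first date, -0.02 on the second and 0.08 on the third. Over all tested genes these medians were -0.02, -0.01 and -0.01. The medians of the 46 tested proteasome genes were -0.19, -0.05 and 0.09. Of the 46, 16 had the same direction in all 3 pairs (34.8%, against 41.5% of all tested genes).

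The subunits of the immunoproteasome were scarce in both lines, and Psmb9 and Psmb10 had their lower values in HN. Psmb10 had normalized counts of 61.7, 87.3 and 45.8 in R1 and of 18.3, 39.7 and 36.8 in HN. The lines did not overlap, and the means were 65.0 ± 20.9 and 31.6 ± 11.6 (SD, n = 3 each). The log2 fold change was -1.04 ± 0.35 (SE), with an adjusted p of 0.581 by limma without the block and 0.00216 with it. Over all the alternatives the adjusted p ran from 2.19e-04 to 1.

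Psmb9 rested on few reads, 12, 14 and 5 in R1 and 5, 2 and 6 in HN. Its normalized counts were 12.8, 10.4 and 6.74 in R1 and 6.08, 1.42 and 6.498 in HN. The lines did not overlap, although the lowest R1 value and the highest HN value, both of the third date, nearly touch. The log2 fold change was -1.08 with an interval of -2.69 to 0.53, and the gene was called neither without nor with the block (limma adjusted p of 1 and 0.229). Without HN replicate 2 the log2 fold change was -0.55, and with each of the other libraries left out it lay between -1.37 and -0.89.

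Psmb8 was near the detection limit of 3 reads in most libraries. It had 2, 2 and 11 reads in R1 and 6, 0 and 1 in HN, and was not tested. Psmb11, the cutting subunit of cortical thymic epithelium, had between 1 and 4 reads in each library. A difference in these 2 genes was not detectable at this depth.

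Summed per kilobase, Psmb8, Psmb9 and Psmb10 stood at 4.47%, 6.52% and 3.90% of the summed level of Psmb5, Psmb6 and Psmb7 in R1. In HN they stood at 2.07%, 2.70% and 2.71%. The means were 4.97% ± 1.37 in R1 and 2.49% ± 0.365 in HN (SD, n = 3 each), without overlap. With the longest transcript in place of all exons as the length, they were 3.84% and 1.93%. Most of the sum is Psmb10. The summed fibroblast markers and the summed blood cell markers given above were also lower in HN on each date. Among the fibroblast markers, Thy1 and Pdgfrb lay furthest below 0. The part of the fibroblast and blood cell markers in the result was not tested.

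**Figure D3:**
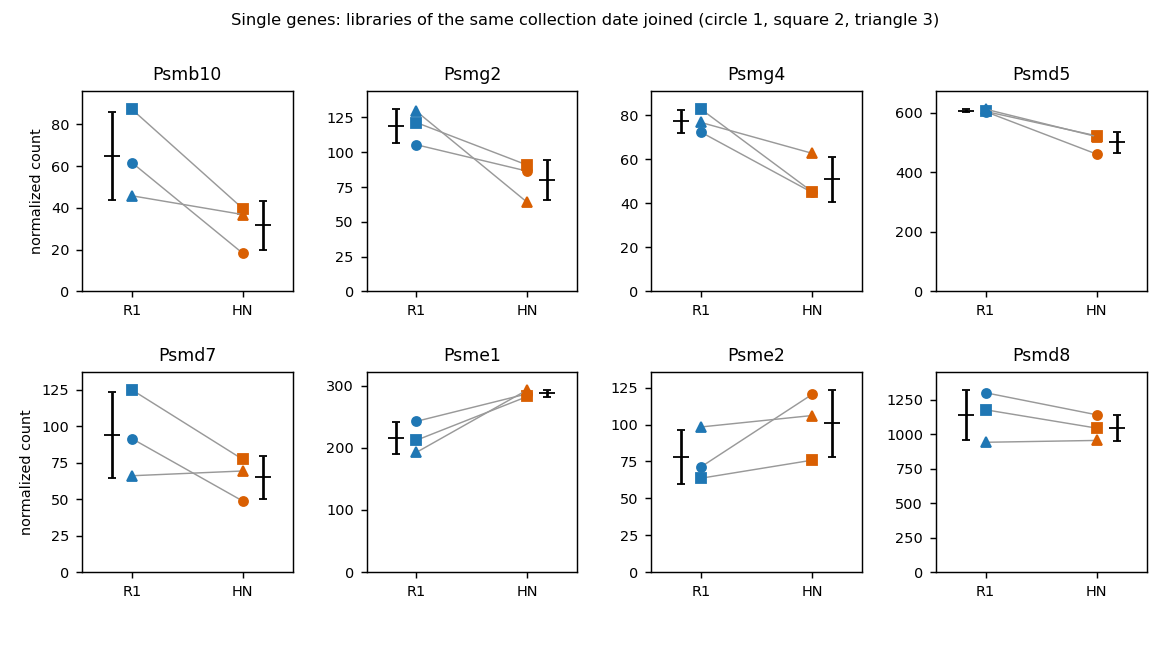
Normalized counts (y axis, from 0) of 8 proteasome genes in R1 (blue) and HN (orange); grey lines join libraries of the same date, and black bars give the mean and SD of each line (n = 3). The lines fall on every date in Psmb10, Psmg2, Psmg4 and Psmd5 and rise in Psme1 and Psme2, while in Psmd7 and Psmd8 the pair of the third date goes slightly the other way.

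The base of the cap showed no called gene. Its 6 ATPases had a median log2 fold change of 0.06. Psmc5 was the lowest, with counts of 137, 234 and 210 in R1 and of 122, 232 and 179 in HN (log2 fold change -0.14, interval -0.74 to 0.47). Psmc6 was the highest, with counts of 723, 812 and 760 in R1 and of 770, 908 and 905 in HN (log2 fold change 0.17, interval -0.21 to 0.55). Both had libraries that overlapped between the lines. The other ATPases, Psmc1, Psmc2, Psmc3 and Psmc4, lay between -0.11 and 0.10 on the log2 scale. Among the base subunits without ATPase activity, Psmd2, a scaffold that binds ubiquitin-like domains, had a log2 fold change of 0.12 (interval -0.30 to 0.54). Psmd4, the ubiquitin receptor, had one of -0.04 (interval -0.44 to 0.35), and Psmd1, the other large scaffold of the base, one of 0.05 (interval -0.37 to 0.46).

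The lid had a median log2 fold change of 0.00 over 8 genes, with 4 on either side of 0. Psmd7, the partner of the deubiquitinase of the lid, had counts of 91.6, 125 and 66.0 in R1 and of 48.7, 77.3 and 69.3 in HN. Its libraries overlapped, and the log2 fold change was -0.51 ± 0.29 (SE). It was -0.28 without R1 replicate 2 and -0.31 without HN replicate 1. The adjusted p was 1 by limma without the block and 0.0696 with it, and 0.0227 by edgeR with the block. Over all the alternatives it ran from 0.0227 to 1.

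The 5 lid genes Psmd3, Psmd6, Psmd12, Psmd13 and Psmd14, of which Psmd14 encodes the deubiquitinase, lay between -0.06 and 0.05 on the log2 scale. Psmd11, a scaffold of the lid, was the highest of the lid at a log2 fold change of 0.19 (interval -0.33 to 0.71). Psmd8, another lid subunit, had counts of 1300, 1176 and 941 in R1 and of 1140, 1043 and 954 in HN. It was lower in HN on the first and second dates and slightly higher on the third, its libraries overlapped, and the log2 fold change was -0.11 ± 0.19 (SE; interval -0.53 to 0.30; limma adjusted p of 1 without and 0.516 with the block).

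The 4 Psmg genes, which encode chaperones that assemble the core, all had log2 fold changes below 0, with a median of -0.49, and 2 of the 4 were called lower with the block (against 51.5% of all tested genes below 0 and 4.02% called lower). Psmg2, which pairs with Psmg1 to build the alpha ring, had counts of 105, 121 and 129 in R1 and of 86.4, 90.7 and 63.9 in HN. No HN library reached the lowest R1 library. Its log2 fold change was -0.57 ± 0.23 (SE), with an adjusted p of 0.752 by limma without and 0.0174 with the block, and from 0.0104 to 1 over all the alternatives.

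Psmg4, which pairs with Psmg3 in building the alpha ring, had counts of 72.4, 82.9 and 76.8 in R1 and of 45.02, 45.4 and 62.8 in HN. The lines did not overlap. The log2 fold change was -0.60 ± 0.24 (SE), with an adjusted p of 0.752 by limma without and 0.0294 with the block, and from 0.0126 to 1 over all the alternatives. Psmg1 had one of -0.17 (interval -0.59 to 0.26) and Psmg3 one of -0.42 (interval -1.12 to 0.28).

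Of the 3 chaperones of the cap, Psmd5 separated the lines without being called. It had counts of 604, 604 and 612 in R1, and of 461, 522 and 520 in HN. The means were 607 ± 4.59 and 501 ± 34.7 (SD, n = 3 each). The log2 fold change was -0.28 ± 0.17 (SE), with an adjusted p of 1 by limma without and 0.0633 with the block, and from 0.0546 to 1 over all the alternatives. Psmd9 lay at 0.04 (interval -0.47 to 0.55), and Psmd10, gankyrin, at -0.20 (interval -0.74 to 0.34).

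The lines were also separated without overlap in 6 of the 46 genes in all, 5 with HN lower and Psme1 with HN higher (against 10.8% of all tested genes). With HN lower the share was 10.9%, against 5.54% of all tested genes, and with HN higher 2.17%, against 5.23%.

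The activator PA28, whose alpha and beta chains Psme1 and Psme2 encode, opens the core for peptides and is induced by interferon together with the immunoproteasome. Psme1 had counts of 243, 212 and 193 in R1 and of 287, 283 and 294 in HN. All HN libraries lay above all R1 libraries, with means of 288 ± 5.38 and 216 ± 25.2 (SD, n = 3 each). The log2 fold change was 0.42 ± 0.18 (SE), with an adjusted p of 0.817 by limma without and 0.0146 with the block, and from 0.00750 to 1 over all the alternatives.

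Psme2 had counts of 71.3, 63.6 and 98.4 in R1 and of 120, 75.8 and 106 in HN. It was higher in HN on each date, but the lines overlapped and it was not called (log2 fold change 0.37, interval -0.20 to 0.94, limma adjusted p of 0.171 with the block). Psme1 and Psme2 lay above 0, and Psmb9 and Psmb10, which interferon also induces, lay below it. Psmb9 rested on few reads, and the level of Psme2 is uncertain because of shared sequence. A part of interferon in these values was not tested. Psme3, a nuclear activator, stood at -0.03 (interval -0.46 to 0.40), Psme4, the activator PA200, at 0.11 (interval -0.28 to 0.50), and Psmf1, described as an inhibitor of the core, at 0.14 (interval -0.40 to 0.68).

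The genes are also given by position, because the medians of some whole chromosomes lay away from 0. On chromosome 8 the other 751 tested genes had a median log2 fold change of -0.22, and 79.1% of them lay below 0, the lowest median of the 20 chromosomes. Its proteasome genes are Psmb10 (105935735 to 105938444) and Psmd7 (107580381 to 107588464), at -1.04 and -0.51. On chromosome 14 the other 476 tested genes had a median of 0.25 and 21.6% lay below 0, the highest median. All 5 proteasome genes there (Psmb5, Psmc6, Psmd6, Psme1 and Psme2) lay above 0, with a median of 0.17, and the genes Psme1 (55578123 to 55581529) and Psme2 (55587441 to 55591113) lie close together. These medians of chromosomes 8 and 14 kept their sign on each date, at -0.26, -0.28 and -0.13 and at 0.24, 0.23 and 0.25.

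When each gene was taken relative to the median of its chromosome, the log2 fold change of Psme1 fell from 0.42 to 0.17 (unadjusted p of 0.315 by limma) and the median of the 5 genes of chromosome 14 to -0.08. Psmb10 moved from -1.04 to -0.83 (limma unadjusted p of 0.0290), and Psmg2 and Psmg4 stood at -0.57 and -0.55 (limma unadjusted p of 0.0188 and 0.0369). Without both libraries of the third date, Psmb10 stood at -1.41, Psmg4 at -0.76, Psmg2 at -0.35 and Psme1 at 0.33. The latter 2 then missed an unadjusted p under 0.05 by limma. Both of these alternatives were chosen after the data had been seen, and the part of the chromosomes in the results was not tested further.

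**Figure D4:**
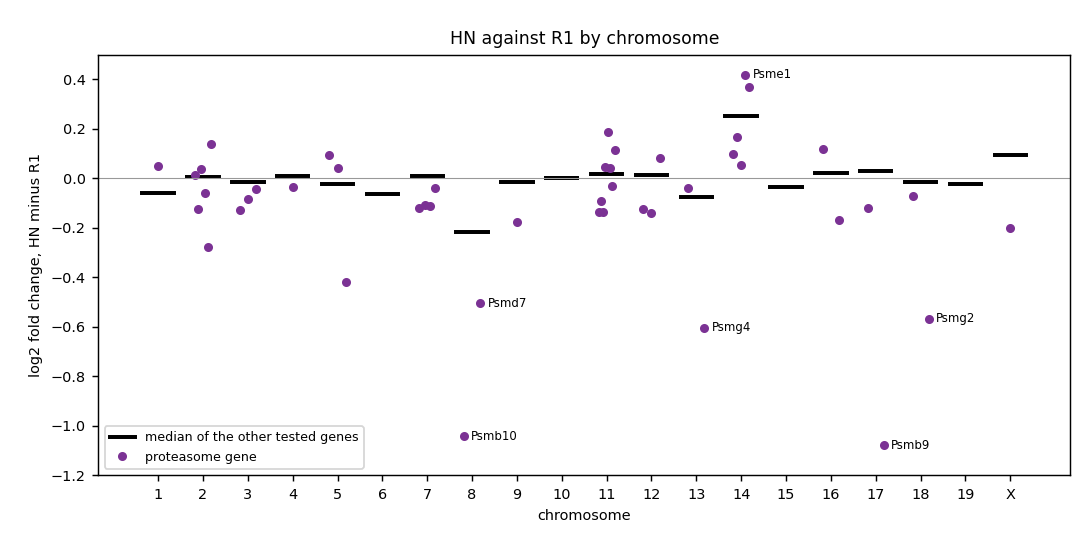
Log2 fold change of HN over R1 (y axis) by chromosome (x axis); bars are the medians of the tested genes outside the proteasome, and purple points are the 46 proteasome genes. The bars of chromosomes 8 and 14 stand apart at -0.22 and 0.25, with their proteasome genes on the same side of 0, and Psmg2, Psmg4 and Psmb9 lie far below the bars of their own chromosomes.

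Genes that work with the proteasome were compared in the same fit. They were 41 genes in 8 lists, covering ubiquitin, its activating enzymes, subunits with other names, bound deubiquitinases, shuttle receptors, the p97 segregase, transcription factors of proteasome genes and MHC class I antigen processing. Of these, 40 were tested, and Paaf1 was not analysed here. Without the block limma called 0 of 40 (against 0.245% of all tested genes) and picked 2 at an unadjusted p under 0.05 (against 5.91%), with a median log2 fold change of -0.05. With the block it called 3 of 40 (against 9.48% of all tested genes), each higher in HN.

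Among them, B2m, the light chain of MHC class I, had counts of 196, 131 and 203.5 in R1 and of 408, 154 and 335 in HN. It was higher in HN on each date, although the lines overlapped (log2 fold change 0.67 ± 0.33, SE; limma adjusted p of 0.932 without and 5.18e-04 with the block). Tapbp, tapasin, had counts of 59.6, 66.6 and 52.6 in R1 and of 101, 87.2 and 72.6 in HN, without overlap (log2 fold change 0.53 ± 0.24, SE; limma adjusted p of 0.823 without and 0.0428 with the block). Uba1, the main activating enzyme, and Nfe2l2, a transcription factor of the oxidative stress response, stood at 0.26 and 0.31 and were not called by limma (adjusted p of 0.0543 and 0.0717 with the block). edgeR with the block called Uba1 (adjusted p of 0.0322) but not Nfe2l2 (0.0632).

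The last comparison set the third collection date against the earlier dates, with the line as a term, to see how the genes vary between cultures. Here 5842 of all tested genes were called (40.9%), and 10 of the 46 proteasome genes (21.7%). None of the 46 differed by more than 1 on the log2 scale with an adjusted p under 0.05 by limma, against 15.5% of all tested genes. That share was 14.0% higher and 1.49% lower on the third date, and it depends on the count. At a mean of at least 50, 315 of 7659 genes were called higher by any amount. At an unadjusted p under 0.05, limma picked 11 of the 46 (23.9%, against 49.7% of all tested genes). Markers of cell types differed on the same date. By limma, 8 of 10 naive mESC markers were called lower, and 5 of 5 tested markers of primitive endoderm, 5 of 6 of fibroblasts, 4 of 6 of neural cells and mesoderm and 1 of 2 of blood were called higher. Of all tested genes, 23.2% were called lower and 17.8% higher. At a mean of at least 50, which the naive mESC markers reached, 3035 of 7659 genes were called lower. The part of these markers in the result was not tested.

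The direction of the date difference depends on the scaling. With the deposited size factors 3 proteasome genes were higher on the third date (6.52%, against 17.8% of all tested genes) and 7 lower (15.2%, against 23.2%). These shares depend on the count of the genes. At a mean of at least 50, 3 of 42 proteasome genes were called higher, against 315 of all 7659 genes. Called lower were 7 of the 42, against 3035 of the 7659. With each library centred on its median 6 were higher (against 22.6% of all tested genes) and 0 lower (against 13.8%). With quantile normalization 12 were higher (26.1%, against 12.2%) and 0 lower (against 13.1%), so that the share of proteasome genes called higher was below that of all genes under the former scaling and above it under the latter. Median centring moved the median log2 difference of all tested genes from -0.07 to 0.06, and that of the 46 genes from -0.11 to 0.03. The genes named for this comparison were chosen after their values were seen.

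Psmb3 was higher on the third date under each of the 15 alternatives and called in 13. Its log2 difference was 0.46 ± 0.10 (SE; limma adjusted p of 9.27e-04), between 0.29 and 0.69 over the alternatives. Psmd1, a scaffold of the base, and Psme4 were at 0.24 and 0.23 (limma adjusted p of 0.0437 and 0.0448), above 0 under each alternative and called in 9 and 7 of the 15. The 7 genes called lower, Psma3, Psmb4, Psmc3, Psmc4, Psmd8, Psmd13 and Psmd14, lay between -0.32 and -0.25. They stayed below 0 under each alternative, and 0 of them were called with median centring or quantile normalization.

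**Figure D5:**
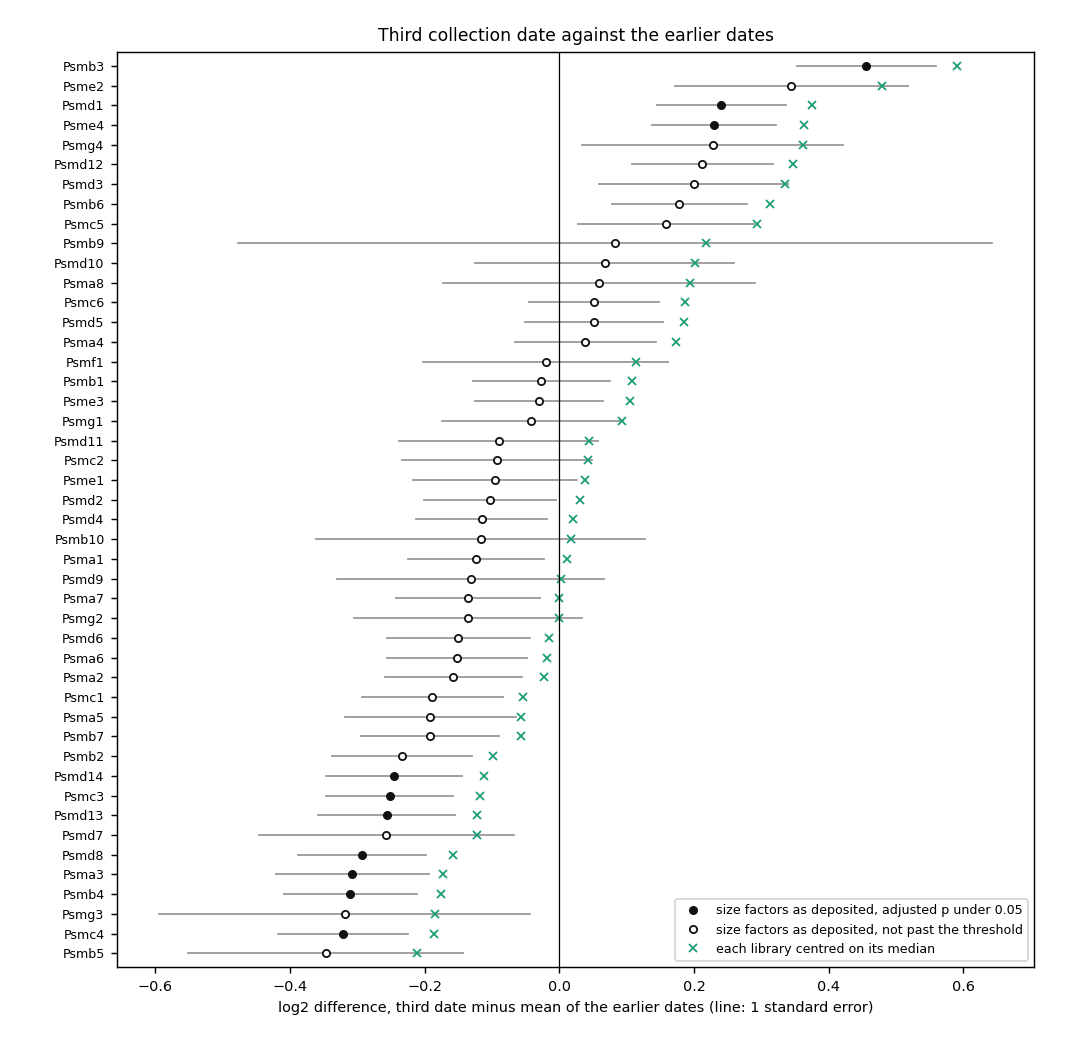
Log2 difference of the third date from the mean of the earlier dates (x axis) for the 46 tested genes, sorted; circles are limma values with 1 standard error, filled where the adjusted p is under 0.05, and crosses give the values with each library centred on its median. The crosses lie to the right of the circles by the same step in every gene, and Psmb3 stands highest on both scales.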

How the data were processed

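RNA was sequenced from R1 and HN mESCs, with 3 libraries per line. Per the labels and the methods of the study, the authors used STAR to align paired-end reads to the build mm10 (GRCm38), Picard to drop PCR duplicates, HTSeq to count per gene and DESeq2 to divide by size factors. Versions and the gene annotation are not given in the sources used here. The deposited values are thus a normalized signal per gene, called normalized counts here. Unused columns of per-sample values numbered 0.

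All values (100%) were whole multiples of 1 read within a tolerance of 0.01, so reads were recovered and gave depth (between 1640391 and 3866717 per library), detection limits (3 reads) and the count-based alternatives. Precision is lowest for genes with few reads.

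Lines were compared on log2(normalized count + 1), so that a fold change understates that of low genes, with limma 3.58.1 (variance trend, R 4.3.3) over 14276 genes with a mean of at least 5, and a Benjamini-Hochberg adjusted p-value under 0.05 over all of them. The main fit has no block, since the methods name none. The labels give same-numbered libraries the same collection date, and their deviations from the line means correlated at 0.25, 0.69 and 0.77, so the blocked value is given where it changes a call. The dates were compared with line and date as terms. Replicates of a line differed by more than counting noise (their chi-square was 4.70 to 9.91 times its degrees of freedom), and the study's methods describe them as separate batches of cells. The p-values measure the spread between these libraries.

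The genes and lists were chosen with earlier results of these data known. Described with values are the genes of highest and lowest log2 fold change overall and in each role, Psmb5 to Psmb11, Psma8, Psmd8 and the genes called with the block, and of the other lists the genes with the 5 lowest adjusted p-values with the block, of which 1 is not reported here. Scripts were tested on simulated data. Alternatives were the block, edgeR 4.0.16 with and without it, DESeq2 1.42.0, pseudocounts of 0.1 and 10, a filter at a mean of 50 and none, quantile normalization, median centring, no variance trend and leaving out each library. Positions and lengths come from GENCODE M21, and promoters from RefSeq.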

Additional observations from a re-analysis of the deposited data

How the results depend on the processing

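Over the alternatives tried without a block, 0 proteasome genes were called between the lines. The replicate block raised the called genes from 35 to 1354 with limma and 1605 with edgeR, the proteasome genes from 0 to 4 and 5, and the associated genes from 0 to 3 and 5, and it changed no other call described here. DESeq2 called 94 genes and limma without the variance trend 0. Leaving out 1 library gave between 8 and 55 (8 without R1 replicate 1, 13 without HN replicate 1, 55 without R1 replicate 3). For the third date, called genes numbered 2376 with DESeq2, 3314 at a mean of at least 50, 3613 with quantile normalization, 1540 without the variance trend and from 2424 to 6677 with 1 library left out. Called proteasome genes then numbered 2 with DESeq2, 6 without a filter, 6 with median centring, 0 without the trend and from 1 to 13 with 1 library left out (1 without R1 replicate 2, R1 replicate 3 or HN replicate 2). The median difference of the proteasome genes became 0.12 with quantile normalization. The immunoproteasome share in HN became 1.93% with the longest transcript. The cause of these changes was not tested.

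Fold changes near 0 turned sign. With quantile normalization Psma7 stood at -0.0075 and Psma8 at 0.047. Without both libraries of the third date, Psma7 stood at -0.12, Psmb5 at -0.0031 and Psmd9 at -0.0086. Relative to their chromosome, Psmb5 stood at -0.15 and Psmc6 at -0.082. With 1 library left out, the log2 fold changes of Psma7 ran from -0.10 to 0.088, Psma8 from -0.22 to 0.072, Psmb2 from -0.14 to 0.064, Psmb5 from -0.11 to 0.25, Psmb6 from -0.18 to 0.038, Psmc5 from -0.37 to 0.11, Psmd4 from -0.13 to 0.033, Psmd9 from -0.027 to 0.094, Psme3 from -0.14 to 0.099 and Psmf1 from -0.016 to 0.25. Depth limits Psmb8, Psmb9 and Psmb11 most.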
